A study of Homo sapiens with 12 samples.

Results

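Messenger RNA levels were compared between 3 arrays of control cells from a microRNA inhibitor experiment, titled WT, and 3 arrays of cells held at 40 °C in a separate temperature experiment. These 6 arrays were chosen by their titles from a series of 12, all of the THP-1 line. THP-1 is a human monocytic leukaemia line, and the phorbol ester PMA turns its cells into adherent, macrophage-like cells. In both groups cells were treated with 100 ng/ml PMA for 48 hours. The 40 °C cells were not transfected, and the protocol names harvests after 2, 8 and 24 hours at 40 °C without saying which of them the arrays hold. For the inhibitor experiment the protocol describes differentiation at 40 °C, nucleofection with a 2′-O-methylated hairpin inhibitor or a non-human control together with the plasmid pmaxGFP, and sorting of GFP-positive cells 24 hours later. The WT arrays carry only the labels WT and control, so it is not stated for them that they received the control inhibitor, the plasmid or the sort, nor how long they were at 40 °C. They are called WT control arrays here. The other 6 arrays of the series, 3 of inhibitor-treated cells and 3 of cells at 37 °C, serve as a second pair from the same experiments.

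Any differences in handling, time in culture and array batch go together with the groups, because each group lies in 1 experiment. Their parts in a gene's difference cannot be told apart. No label says that the 3 arrays of a group came from separate cultures, so the tests measure only the spread between arrays. Both groups are bulk RNA, in which fewer cells of a kind and less RNA per cell cannot be told apart.

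Several stress programmes were followed gene by gene. Heat shock factors drive chaperone genes when proteins unfold. The factor ATF4 drives genes of amino acid uptake and synthesis when amino acids run short or proteins misfold in the endoplasmic reticulum. Interferon signalling keeps antiviral genes on, and replication genes are on in cells that pass through S phase. In macrophages these programmes run beside the genes for chemokines, lipid handling and phagocytosis.

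The groups stood clearly apart, and the array controls moved with them. Pearson's r over probe sets was 0.9965 to 0.9975 among the WT control arrays, 0.9977 to 0.9983 among the 40 °C arrays, and 0.9640 to 0.9666 between the groups. Poly-A spikes, bacterial transcripts added before labelling, averaged 7.22 ± 0.37 (SD, n = 3) on the WT control arrays and 7.96 ± 0.04 (SD, n = 3) on the 40 °C arrays, on the log2 scale. For these spikes an exact permutation test gave a two-sided p of 0.1, the smallest that 3 arrays against 3 can give. The 3′ minus 5′ control difference was 2.44 ± 0.09 against 1.58 ± 0.22 for ACTB and 1.04 ± 0.04 against 0.44 ± 0.10 for GAPDH (log2, SD, n = 3), so the 5′ ends were dimmer on the WT control arrays. Probe sets for 18S ribosomal RNA were 1.96 higher there, a 3.89-fold difference. Background probes of 3 to 7 G or C bases were at -0.22 relative to the 40 °C arrays and those of 16 to 19 at 0.33. The part of these shifts in the gene differences was not tested.

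**Figure D1:**
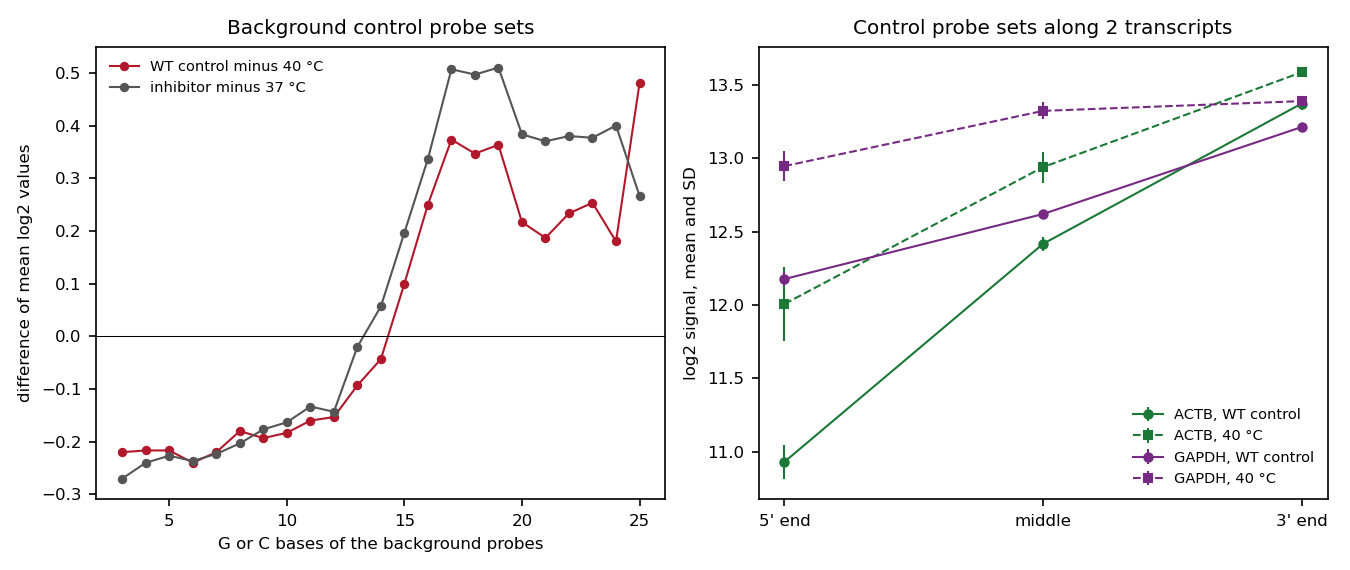
Left, difference in mean log2 value of the background control probe sets against their number of G or C bases, for WT control minus 40 °C (red) and inhibitor minus 37 °C (grey). Right, log2 signal (mean and SD of 3 arrays) of control probe sets at the 5′ end, middle and 3′ end of ACTB and GAPDH. Background probes of few G or C bases lie below 0 and those of 16 or more above it, and the WT control lines fall below the 40 °C lines most at the 5′ end.

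Of 13909 genes tested, 5129 (36.9%) were higher and 5276 (37.9%) lower on the WT control arrays at a limma Benjamini-Hochberg adjusted p under 0.05, so that 74.8% were called. The 3 arrays of each group did not overlap for 10665 genes (76.7%). Most called differences were small, with a median size of 0.52 on the log2 scale. Called differences of at least 2-fold numbered 737 (5.3%) upwards and 862 (6.2%) downwards. Over all tested genes the median difference was 0.00. It was 0.20 for the 3831 genes with mean levels of 4 to 6, of which 48.1% were higher, and -0.13 for the 3964 genes at 8 to 10, of which 48.1% were lower. Among 6293 called genes with several tested probe sets, 1621 had at least 1 probe set that went the other way past the threshold (25.8%). With so many genes called, each call below is given with its size, and each count of a list is to be read beside 36.9% higher and 37.9% lower.

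The 4 largest increases were in HSPA6, PPP1R27, CCL18 and G0S2. HSPA6, an HSP70 chaperone induced by strong stress, measured 11.80, 11.72 and 11.79 on the WT control arrays and 5.91, 5.55 and 5.58 on the 40 °C arrays. All WT control values lay far above the 40 °C values, a 68.1-fold difference (6.09 ± 0.10 on the log2 scale, SE; limma adjusted p = 8.2e-09). Its only probe set may also detect near-identical HSP70 family copies. PPP1R27, a regulatory subunit of protein phosphatase 1, stood at 10.04, 9.81 and 10.00 against 5.12, 5.06 and 4.84. That is 30.8-fold higher.

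CCL18, a chemokine of alternatively activated macrophages, measured 9.08, 9.03 and 9.05 against 4.21, 4.30 and 4.11 on the 40 °C arrays, where it lay below the level used as a filter. The difference was 28.8-fold. G0S2, an inhibitor of the triglyceride lipase ATGL, measured 12.39, 12.28 and 12.39 against 8.34, 8.24 and 8.34, a 16.5-fold difference, with both tested probe sets of its 4 higher. The remaining genes among the 15 largest increases were 9.6 to 15.5-fold higher. They were RBM24, an RNA-binding protein of muscle, the leukaemia-associated BAALC, the transcriptional coactivator CITED4, the antisense transcript MSC-AS1, and the surface peptidase DPP4. The neutrophil-attracting chemokine CXCL2, the Notch target HEY1, the surface glycoprotein CD48, the endoplasmic reticulum phagy receptor RETREG1, the drug efflux pump ABCG2 and SHISA3 complete them. These folds are of the brightest probe set. On the log2 scale the 3 tested probe sets of BAALC ranged from 0.61 to 3.86 and the 2 of ABCG2 from 0.90 to 3.32. The 2 of CXCL2 ranged from 3.47 to 4.07. MSC-AS1 is antisense to MSC, and the array's design decides which strand is read.

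The 3 largest decreases were in S100A8, GJA1 and ANTXR1, followed by CXCL10, S100A9 and CX3CR1. S100A8, a subunit of calprotectin, measured 5.37, 5.21 and 5.18 on the WT control arrays and 9.51, 9.46 and 9.37 on the 40 °C arrays. It was 18.3-fold lower (-4.19 ± 0.07 on the log2 scale, SE; limma adjusted p = 8.2e-09). Its partner S100A9 measured 6.16, 5.60 and 5.81 against 9.52, 9.49 and 9.44 and was 12.4-fold lower. Both calprotectin subunits were therefore low on every WT control array.

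CX3CR1, the fractalkine receptor of monocytes, measured 6.78, 6.72 and 6.75 against 10.21, 10.15 and 10.17, a 10.8-fold decrease. CXCL10, a chemokine induced by interferon, measured 3.61, 3.44 and 3.59 against 7.25, 7.30 and 7.29. Its WT control values lay below the filter level of 4.48, so its 13.3-fold difference rests on a dim signal. GJA1, the gap junction protein connexin 43, and ANTXR1, an anthrax toxin receptor, were 14.4-fold and 14.3-fold lower. For GJA1 the 3 tested probe sets ranged from -3.84 to -0.17, and for ANTXR1 the 2 tested from -3.84 to -2.02. The remaining 9 of the 15 largest decreases were 7.45 to 9.65-fold lower. These were TIMD4, which binds phosphatidylserine on dying cells, the complement receptor C3AR1, the beta-glucan receptor CLEC7A, the adaptor BLNK, the adaptor SAMSN1, the lipid receptor GPR18, the neuropeptide NTS, the kinetochore protein SPC24 and the protocadherin PCDH20. The 5 tested probe sets of CLEC7A ranged from -3.09 to -0.48. On the WT control arrays TIMD4, CLEC7A and PCDH20 also lay below the filter level, as MSC-AS1, CXCL2 and HEY1 did on the 40 °C arrays.

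**Figure D2:**
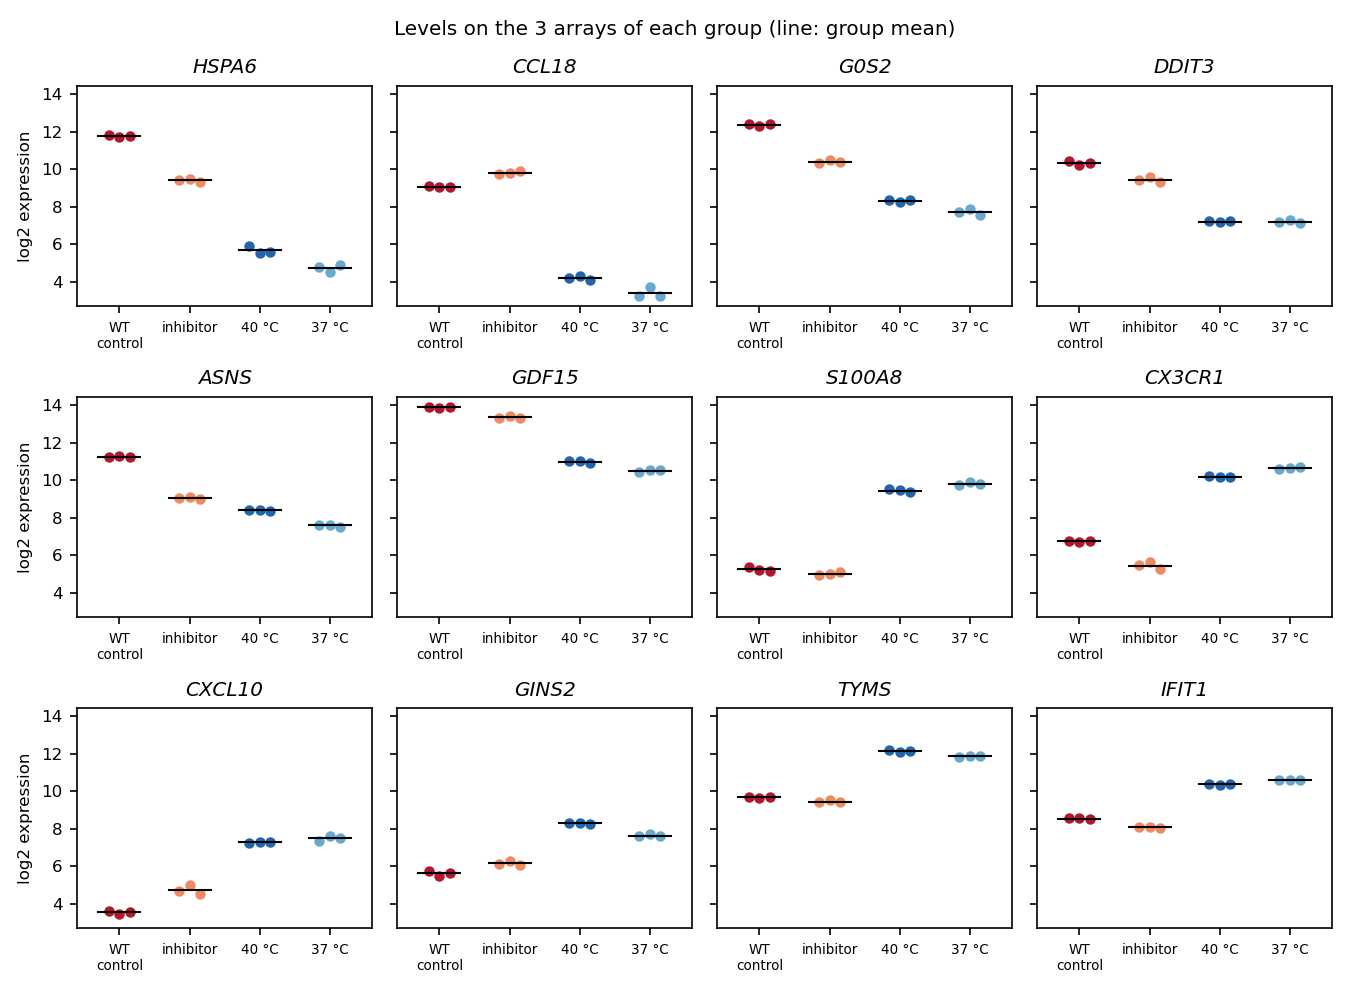
Log2 expression of 12 genes on each of the 12 arrays, with the 3 arrays of a group as points and their mean as a line. For all 12 genes the WT control and 40 °C arrays do not overlap, as for 76.7% of all tested genes. HSPA6 spans 5.55 to 11.80 over these 6 arrays.

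The ATF4 programme was higher almost throughout. Of 28 tested genes, 27 were higher and 0 lower, 14 of them by at least 2-fold, against 36.9% and 37.9% of all genes called higher and lower. Their median difference was 1.06, beside 0.00 over all genes. PSPH, an enzyme of serine synthesis, was the exception at -0.05 (limma adjusted p = 0.54). DDIT3, which encodes the stress factor CHOP, measured 10.42, 10.25 and 10.34 against 7.22, 7.19 and 7.23. The 2 groups were 8.71-fold apart, and both of its probe sets gave over 3 on the log2 scale.

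ASNS, which makes asparagine, measured 11.24, 11.28 and 11.26 against 8.41, 8.40 and 8.38 and was 7.28-fold higher, with all 4 tested probe sets called higher. GDF15, a stress-induced cytokine, measured 13.88, 13.85 and 13.90 against 11.04, 11.02 and 10.92, a 7.38-fold difference. TRIB3, a pseudokinase that restrains CHOP and ATF4, measured 11.09, 11.15 and 11.08 against 8.60, 8.50 and 8.51, a 5.94-fold difference. No WT control value of these genes reached down to a 40 °C value. CHAC1, which degrades glutathione, was 3.38-fold higher, ATF4 itself 0.82 higher on the log2 scale, and ATF3 1.89-fold higher with 1 of 5 tested probe sets called lower.

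Genes that charge transfer RNAs include several that ATF4 is known to drive. Of 19 cytosolic aminoacyl-tRNA synthetase genes, 13 were higher and 3 lower, with a median of 0.45, beside 36.9% higher and 37.9% lower over all genes. WARS1, the tryptophan enzyme, was 3.23-fold higher, EPRS1 for glutamate and proline 2.80-fold, CARS1 for cysteine 2.20-fold and GARS1 for glycine 2.16-fold. Chaperones of the endoplasmic reticulum showed no common direction. Among 22 of them, 11 were higher and 9 lower, with a median of 0.08 that turns negative on centring each array on its median or averaging a gene's probe sets. HSPA5, the main HSP70 of that compartment, was 1.16-fold higher, the co-chaperone DNAJB9 1.99-fold higher, and CRELD2, a calcium-binding stress protein, 1.67-fold lower.

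Cytosolic heat shock chaperones split. Of 24 tested, 11 were higher and 10 lower, with a median of 0.01 and a mean of 0.46. A few members had large increases. After HSPA6, CRYAB, a small heat shock protein, measured 7.74, 7.63 and 7.66 against 5.02, 5.10 and 5.25, a 5.87-fold difference. HSPA1B, the main inducible HSP70, measured 12.51, 12.59 and 12.63 against 10.94, 10.65 and 10.77 and was 3.46-fold higher, and its probe set may also detect its near-identical copy. The HSP70 partners DNAJB1, HSPH1 and BAG3 were 1.66, 1.32 and 1.26-fold higher. Each of these genes was above its 40 °C values on all 3 WT control arrays.

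Other members were lower or gave mixed readings. The HSP90 genes HSP90AA1 and HSP90AB1 were at -0.34 and -0.39, both called lower, and the co-chaperone FKBP4 at -0.60, while HSPA4 was at 0.51 and ST13 at 0.69, both called higher. These 5 were named after their values were seen. HSPA8, the constitutive HSP70, was 1.27-fold lower at its brightest probe set, with 13.71, 13.75 and 13.74 against 14.07, 14.07 and 14.09. Of its 9 tested probe sets 4 were higher and 4 lower, from -0.91 to 5.37, and their mean gives 1.04 higher. So no direction is assigned to HSPA8. In the TRiC and mitochondrial chaperone list 2 of 13 were higher and 6 lower (median -0.17). This list is bright, and among all genes with a mean level of 10 or more 31.6% were higher and 48.7% lower. The TRiC subunits CCT7, TCP1 and CCT3 were 1.66, 1.35 and 1.29-fold lower and the mitochondrial HSPA9 1.70-fold higher.

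To show letter matches to a motif of each of 3 stress programmes, promoters of 4 members are printed from RefSeq on build GRCh38.p14. Each is given as the 250 bases before the start, with matches to the programme's motif in capitals. Motifs were searched on both strands in 300 bases, of which 50 follow the start, and overlapping matches of different motifs were counted separately. The heat shock element was written GAANNTTC, the element of CCAAT enhancer binding proteins and ATF4 TGATGNAA, and the interferon response element GAAANNGAA. The 4 genes were taken by size of difference among called genes of the fixed set that hold the motif of their list. A match was thus a condition for printing, and they do not represent their lists. HSPA6 and HSPA1B belong to the chaperones, ASNS to the ATF4 programme and IFIT1 to the interferon-stimulated genes.
HSPA6, chr1:161524290-161524539, plus strand: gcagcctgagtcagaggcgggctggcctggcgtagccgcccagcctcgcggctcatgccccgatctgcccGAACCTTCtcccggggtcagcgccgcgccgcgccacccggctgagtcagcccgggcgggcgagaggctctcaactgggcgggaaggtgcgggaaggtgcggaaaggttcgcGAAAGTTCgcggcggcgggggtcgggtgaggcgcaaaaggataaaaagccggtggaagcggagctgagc
HSPA1B, chr6:31827488-31827737, plus strand: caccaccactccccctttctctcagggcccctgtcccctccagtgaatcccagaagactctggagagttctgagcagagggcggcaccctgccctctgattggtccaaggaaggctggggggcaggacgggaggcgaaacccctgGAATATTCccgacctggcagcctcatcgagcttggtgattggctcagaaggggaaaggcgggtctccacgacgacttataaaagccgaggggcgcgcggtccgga
ASNS, chr7:97872409-97872658, minus strand: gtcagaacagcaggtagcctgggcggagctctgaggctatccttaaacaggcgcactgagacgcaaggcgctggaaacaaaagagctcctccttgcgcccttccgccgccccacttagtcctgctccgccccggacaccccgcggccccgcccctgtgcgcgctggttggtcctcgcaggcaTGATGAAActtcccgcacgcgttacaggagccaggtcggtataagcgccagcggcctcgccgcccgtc
IFIT1, chr10:89392373-89392622, plus strand: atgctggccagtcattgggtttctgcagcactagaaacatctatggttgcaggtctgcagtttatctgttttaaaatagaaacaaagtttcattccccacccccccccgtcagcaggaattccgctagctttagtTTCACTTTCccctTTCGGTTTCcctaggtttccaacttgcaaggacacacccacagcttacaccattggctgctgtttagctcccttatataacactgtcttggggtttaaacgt

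In HSPA6 the matches begin 180 and 69 bases before the start, in HSPA1B 105, in ASNS 68, and in IFIT1 115 and 102 bases before it. The heat shock element was found in 12 of the 19 tested chaperone genes with a promoter in the table (63.2%), against 6.77% of all 35116 promoters. HSP90AA1 and HSP90AB1, both lower, hold it too, so genes with the match are found on both sides of 0. The interferon element was found in 23 of 28 interferon-stimulated genes (82.1%) against 8.11% of all, and the ATF4 element in 6 of 23 genes of that programme (26.1%) against 3.62%. The 6 were ASNS, ATF3, CEBPG, CHAC1, SLC1A5 and SLC3A2. The list shares count genes with a match in any of their promoters, whereas the shares of all count single promoters, so the units differ. These matches describe letters in a window and do not show that a factor bound there.

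Among 36 tested interferon-stimulated genes, 29 were lower and 6 higher, with 14 decreases of at least 2-fold and a median of -0.74. Over all genes 37.9% were lower, 36.9% higher and 6.2% lower by at least 2-fold. IFIT2, which binds viral RNA, measured 6.59, 6.61 and 6.58 against 9.19, 9.15 and 9.13 and was 5.91-fold lower. IFIT1, whose promoter is shown above, measured 8.57, 8.55 and 8.51 against 10.38, 10.35 and 10.36, a 3.53-fold decrease. RSAD2, the antiviral enzyme viperin, was 4.72-fold lower, the membrane protein IFITM1 3.66-fold, and the ubiquitin-like ISG15 2.76-fold. None of the 40 °C arrays came down to a WT control value for these 5 genes.

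IRF7, a factor that amplifies interferon production, went against its list at 10.74, 10.86 and 10.89 against 9.58, 9.48 and 9.47, 2.50-fold higher. Sensors of foreign nucleic acid gave 7 lower and 2 higher of 17 (median -0.11). The DNA sensor AIM2 was 4.50-fold and the RNA receptor TLR8 2.33-fold lower, both from WT control signals under the filter, and the RNA helicase RIGI 2.04-fold lower, while the factor IRF3 was 2.03-fold higher. In antigen presentation 12 of 19 genes were lower and 3 higher (median -0.32). The immunoproteasome subunits PSMB8 and PSMB9 were 1.85 and 1.57-fold lower, and HLA-DMA, which loads class II molecules, was 2.01-fold lower from a WT control signal under the filter. HLA-DPB1 was 1.59-fold higher at its brightest probe set, with 2 of 7 tested probe sets called lower and HLA genes close in sequence.

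**Figure D3:**
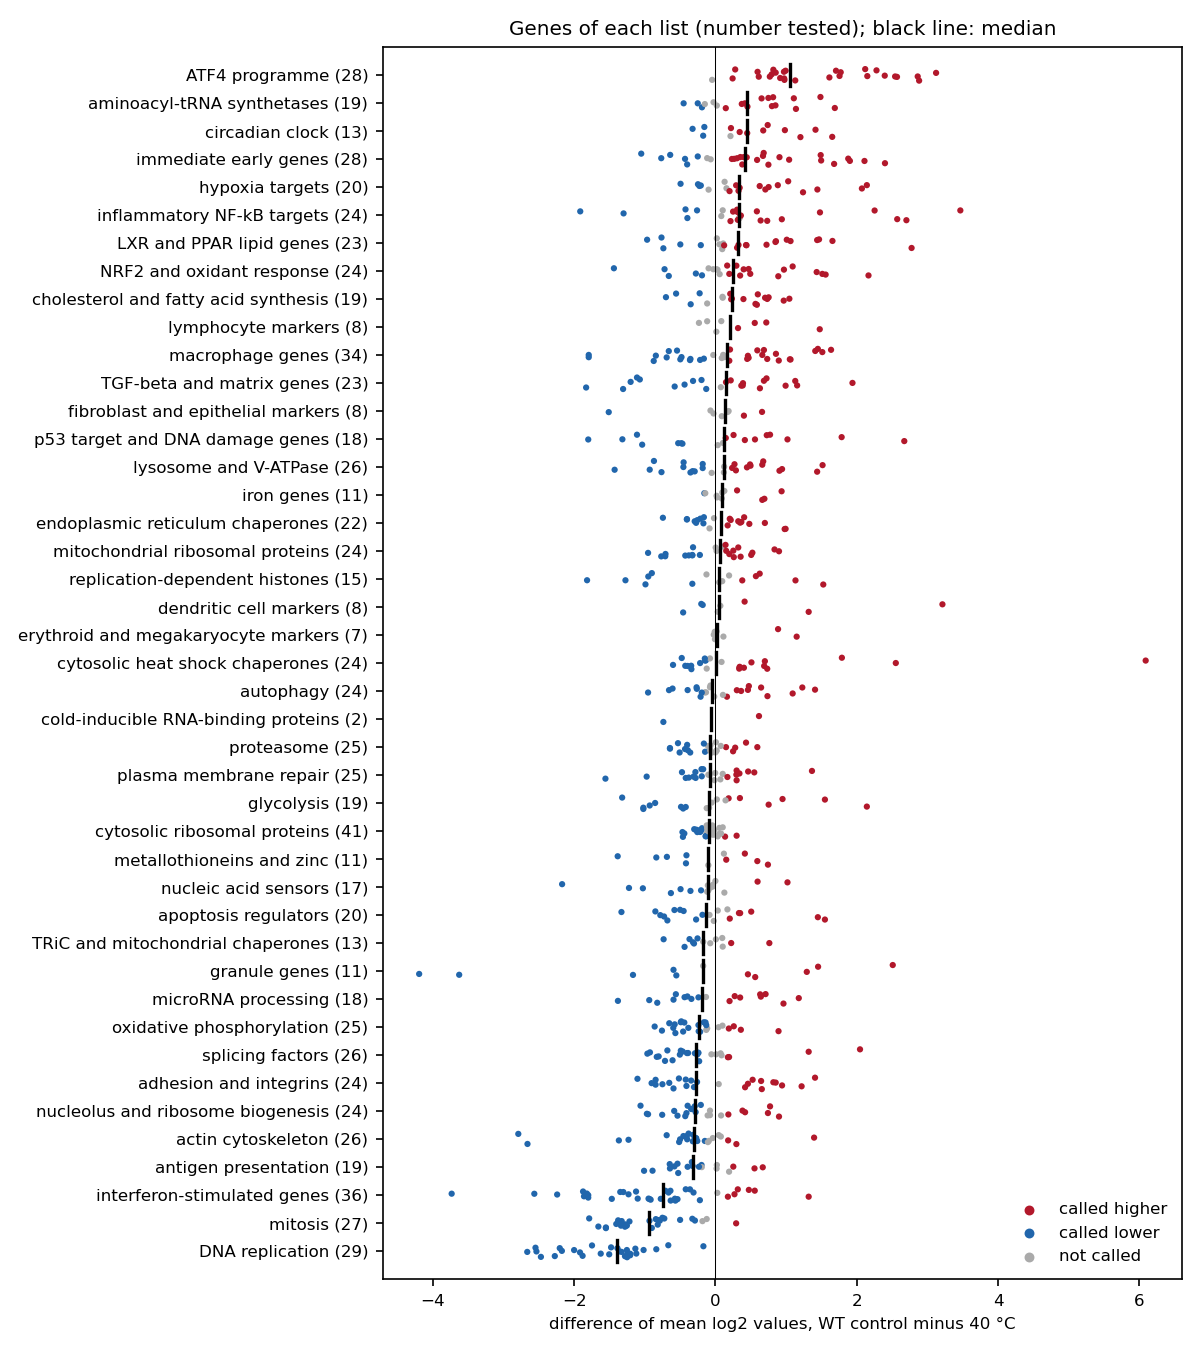
Difference of mean log2 values (WT control minus 40 °C) for every tested gene of 43 gene lists, coloured by call, with the list median as a black line. The ATF4 programme is highest with a median of 1.06 and DNA replication lowest at -1.39, and most other medians lie close to 0.

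DNA replication genes were lower without exception among those tested. All 29 tested genes were called lower, 26 of them by at least 2-fold, with a median of -1.39, beside 37.9% lower over all genes. GINS2, a subunit of the replicative helicase, measured 5.73, 5.50 and 5.67 against 8.32, 8.33 and 8.24 and was 6.33-fold lower. Thymidine kinase TK1 measured 7.46, 7.52 and 7.51 against 10.14, 9.99 and 10.00, a 5.84-fold decrease. The ribonucleotide reductase subunit RRM2 was 5.79-fold lower and thymidylate synthase TYMS, at 9.68, 9.66 and 9.68 against 12.18, 12.10 and 12.15, 5.54-fold lower. The smallest decrease was in the clamp loader subunit RFC5 (-0.17).

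Mitosis genes followed, with 24 of 27 lower, 1 higher and a median of -0.93. The proliferation marker MKI67 measured 7.96, 7.69 and 7.90 against 9.70, 9.59 and 9.62, 3.45-fold lower. The centromere histone CENPA was 3.15-fold lower, the spindle protein PRC1 and the kinase AURKB both 2.93-fold, and the topoisomerase TOP2A 1.73-fold. PLK1, a mitotic kinase, was the gene called higher (0.29), and is named after its value was seen. Replication-dependent histones gave 5 higher and 6 lower of 15. H4C3 was 3.52-fold lower and H2AC11 2.42-fold, while H2BC4 was 2.88-fold and H1-4 2.19-fold higher, both from levels under the filter on the 40 °C arrays. Histone genes are near-identical copies, and their probe sets may share signal.

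**Figure D4:**
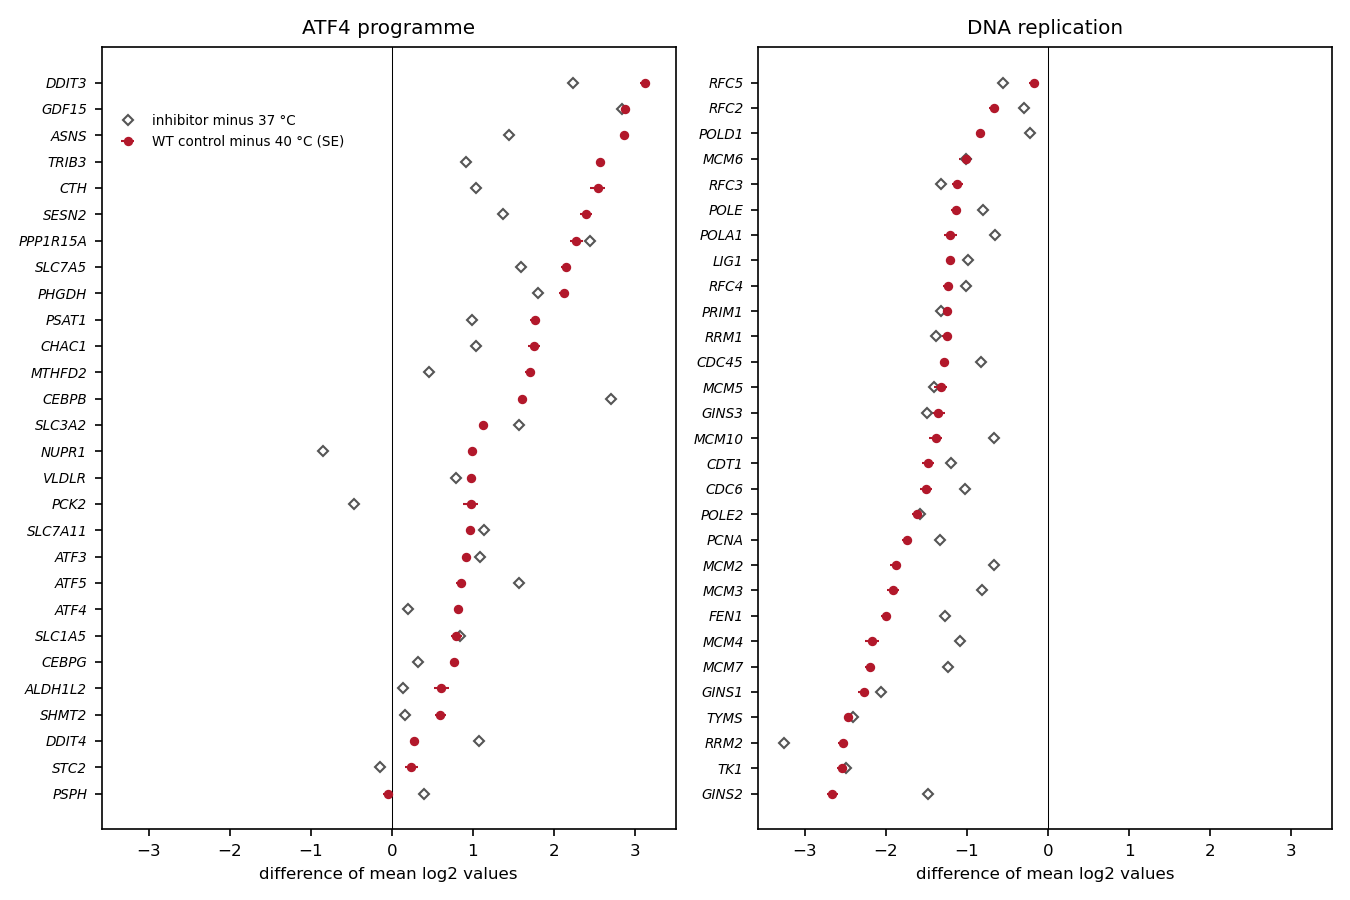
Differences of mean log2 values for each tested gene of the ATF4 programme (left, 28 genes) and of DNA replication (right, 29 genes), WT control minus 40 °C in red with its SE and inhibitor minus 37 °C as open diamonds. All red points but PSPH lie above 0 on the left, and all lie below 0 on the right.

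Of 24 chemokine and other inflammatory NF-kB target genes, 16 were higher and 5 lower, with a median of 0.33, beside 36.9% higher and 37.9% lower over all genes. CXCL8, which attracts neutrophils, measured 8.24, 8.23 and 8.19 against 5.36, 5.39 and 5.80 and was 6.51-fold higher. CXCL2 measured 7.20, 7.07 and 7.15 against 3.69, 3.75 and 3.58, 11.1-fold higher from a level under the filter. The chemokine CCL3 was 5.95-fold and the NF-kB subunit NFKB2 4.77-fold higher. TNF, at 5.99, 6.02 and 6.27 against 6.02, 5.99 and 5.96, and IL6, at 4.68, 5.09 and 5.03 against 4.56, 4.35 and 4.87, were not called (limma adjusted p = 0.26 and 0.063).

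The genes called lower in that list numbered 5, and all but IL1B were named after their values were seen. They were the prostaglandin synthase PTGS2 (-1.91), the chemokines CXCL1 (-1.30) and CCL5 (-0.42), the adaptor TRAF1 (-0.40) and IL1B (-0.26). Immediate early genes gave 20 higher and 6 lower of 28 (median 0.42). The phosphatase DUSP1 was 5.28-fold higher, DUSP5 4.32-fold, KLF10 3.74-fold, DUSP2 3.68-fold and EGR1 3.20-fold. FOS was 1.19-fold lower, with 1 of its 4 probe sets higher and 3 lower.

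Genes of lipid handling under the nuclear receptors LXR and PPAR were higher in 14 of 23 cases and lower in 5, with a median of 0.33. NR1H3, which encodes LXR alpha, measured 9.08, 8.91 and 9.05 against 6.19, 6.31 and 6.21 and was 6.85-fold higher. PPARD and PPARG were 3.15 and 2.76-fold higher, and the fatty acid ligase ACSL1 2.71-fold. FABP4, a fatty acid carrier of macrophages, was 1.67-fold lower. Of 19 cholesterol and fatty acid synthesis genes 12 were higher and 4 lower (median 0.23). Fatty acid synthase FASN was 2.07-fold and HMGCS1 of the sterol pathway 1.95-fold higher. STARD4, a sterol carrier, was 1.66-fold higher at its brightest probe set, with 2 of 5 probe sets lower and a mean over them of -0.03.

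Hypoxia targets gave 13 higher and 4 lower of 20 (median 0.34). VEGFA, an angiogenic factor, measured 11.35, 11.36 and 11.42 against 9.47, 9.08 and 9.36 and was 4.21-fold higher, and all 10 of its probe sets were higher. Hexokinase HK2 was 4.42-fold higher, NDRG1 2.72-fold and the kinase PDK1 2.36-fold. Glycolytic enzymes as a list showed no common direction, with 6 higher and 8 lower of 19 (median -0.09, which turns positive on quantile normalization or centring on ribosomal protein genes). PGK1 was 2.50-fold lower, with all 9 probe sets lower, HK1 2.03-fold and LDHA 1.91-fold lower, while PKM was 2.93-fold higher. Of 25 oxidative phosphorylation genes 17 were lower and 4 higher (median -0.24), with SDHC 1.81-fold and SDHA 1.69-fold lower. These genes are bright, and 48.7% of all genes with a mean level of 10 or more were lower.

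Genes of the oxidant response gave 14 higher and 5 lower of 24 (median 0.25). Malic enzyme ME1 was 4.49-fold, the glutathione synthesis enzyme GCLC 2.95-fold and sulfiredoxin SRXN1 2.85-fold higher. TXNIP, an inhibitor of thioredoxin that glucose induces, was 2.71-fold lower, and HMOX1, which degrades haem, was not called at 9.94, 9.80 and 9.80 against 9.75, 9.83 and 9.78. Metallothioneins and zinc genes were mixed, with 4 higher and 5 lower of 11, from MT1E at 1.67-fold higher to MT1H at 2.61-fold lower.

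The identity of the cells was checked by macrophage and other cell type markers. CD68, a lysosomal macrophage marker, was at a mean of 12.42 on the WT control and 11.01 on the 40 °C arrays, lysozyme LYZ at 10.32 and 10.11, and the adaptor TYROBP at 12.96 and 13.32. All are bright in both groups. Of the other markers set for this check, ITGAM (0.20) and SPI1 (0.66) were called higher and CD36 (-0.50) lower. ITGAX, CD14 and CSF1R are given below. The 34 tested macrophage genes split into 17 higher and 13 lower (median 0.16). ITGAX, an integrin of macrophages and dendritic cells, was 3.11-fold and galectin LGALS3 2.85-fold higher. CD14, the lipopolysaccharide co-receptor, measured 7.28, 7.16 and 7.34 against 9.09, 9.07 and 9.0, and the scavenger receptor MSR1 8.46, 8.34 and 8.52 against 10.28, 10.18 and 10.24. Both were 3.47-fold lower, with every tested probe set lower, and CSF1R, the receptor that sustains macrophages, was 1.46-fold lower.

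Granule genes gave 5 higher and 5 lower of 11 tested, with 7 more below the filter. Besides the calgranulins, which were lower, the neutrophil proteases were higher. PRTN3 measured 8.58, 8.81 and 9.02 against 6.24, 6.40 and 6.24, a 5.70-fold difference, and ELANE 9.20, 9.20 and 9.20 against 7.79, 7.76 and 7.69, a 2.74-fold difference. Neither protease overlapped between the groups.

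Markers of other cell types were mostly dim. Of all genes at a mean level of 4 to 6, 48.1% were higher and 19.9% lower, and at 6 to 8 33.9% and 39.9%. The counts below are to be read beside these shares. Of 8 tested lymphocyte markers 4 were higher and 0 lower, with a mean level of 6.43 to 6.55 on the WT control and 6.09 to 6.18 on the 40 °C arrays. The T cell marker CD3E averaged 5.14 and 4.42, the latter under the filter level, and CD3G did not pass the filter, whereas GNLY, a cytotoxic granule protein, was bright in both groups at 11.36 and 9.88. Erythroid and megakaryocyte markers averaged 5.72 to 5.98 and 5.43 to 5.62 (2 of 7 higher, 0 lower), with HBB at 6.33 and 5.18. Fibroblast and epithelial markers averaged 5.24 to 5.43 and 5.26 to 5.42 (2 of 8 higher, 1 lower), the lower one being PDGFRA. Dendritic cell markers averaged 6.0 to 6.15 and 5.55 to 5.58 (3 of 8 higher, 3 lower), and CCR7, a homing receptor, measured 7.14, 7.05 and 6.98 against 3.71, 3.94 and 3.88, the latter below the filter, a 9.27-fold difference from a dim signal. LAMP3, a marker of mature dendritic cells, averaged 5.98 on the WT control, 3.83 on the 40 °C, 3.99 on the inhibitor and 3.73 on the 37 °C arrays. It did not pass the filter over all 12 arrays, so it has no test, and it is named after its values were seen. Some listed markers, among them CLEC9A, EPCAM, LUM and PPBP, were below the filter in both groups. Others were above it in both. On WT control and 40 °C arrays NKG7 averaged 6.49 and 6.72, and GATA1 6.33 and 6.31. KRT14 averaged 5.84 and 5.91, and FLT3 7.68 and 7.86. All of these were named after their values were seen.

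Of 26 actin cytoskeleton genes 18 were lower and 3 higher (median -0.30). The list is bright, and among all genes with a mean level of 10 or more 48.7% were lower and 31.6% higher, with a median of -0.12. CORO1A, which organises leukocyte actin, measured 8.59, 8.60 and 8.75 against 11.47, 11.47 and 11.37, a 6.92-fold decrease, and the tubulins TUBA1A and TUBB6, kept in this list, were 6.32 and 2.58-fold lower. TPM2, a tropomyosin, was 2.63-fold higher. Splicing factors gave 18 lower and 4 higher of 26 (median -0.28). SRSF1 was 1.95-fold and TRA2B 1.90-fold lower, while CLK1, a kinase of splicing factors, was 4.13-fold higher at 11.30, 11.24 and 11.22 against 9.23, 9.13 and 9.26. Adhesion and integrin genes gave 10 higher and 13 lower of 24, with a median of -0.28 that turns positive when a gene's probe sets are averaged.

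Of 24 nucleolar genes 14 were lower and 6 higher (median -0.29), beside 48.1% lower among all genes at a mean level of 8 to 10. They include POLR1A, the large subunit of RNA polymerase I, at 2.08-fold and NOP56 at 1.96-fold lower. Of 41 ribosomal protein genes 2 were higher, 13 lower and 26 not called (median -0.10, which turns positive on centring on these genes), and RPS3 and RPL13 were both 1.38-fold lower. Of 18 genes of microRNA processing 8 were higher and 9 lower, with DROSHA, the nuclear microRNA-processing nuclease, 1.91-fold lower, with all 4 tested probe sets lower, and TUT4, which adds uridines to RNA, 2.27-fold higher. Circadian genes gave 9 higher and 3 lower of 13 (median 0.45), led by BHLHE41 at 3.15-fold and BHLHE40 at 2.67-fold higher. The cold-inducible pair split, with RBM3 1.53-fold higher and CIRBP 1.67-fold lower. The p53 and DNA damage list split too (9 higher, 7 lower of 18), from the kinase PLK3 at 6.38-fold higher and the death gene BBC3 at 3.45-fold higher to the repair gene DDB2 at 3.48-fold lower.

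A second pair of groups from the same experiments shares none of these arrays. Inhibitor-treated cells set against 37 °C cells gave 5844 genes higher (42.0%) and 4537 lower (32.6%) by limma, and this pair adds a difference in temperature and the inhibitor itself. Of the 1599 genes called with at least 2-fold differences between WT control and 40 °C arrays, 1523 had the same sign in the second pair. Of them 1470 were called there, and 45 of the 1599 were called with the opposite sign. The same-sign share over all tested genes was not computed, so how far these 1599 differ from it is not known. Over all tested genes Pearson's r between the 2 differences was 0.72 and Spearman's rho 0.71, a description across genes, which are not independent replicates. Poly-A spikes were lower in the second pair too (5.87 against 7.87), as was the 5′ end of ACTB (-1.34), whereas 18S went the other way (-0.92). For 6628 genes (47.7%) all 6 arrays of the inhibitor experiment lay on one side of all 6 arrays of the temperature experiment.

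CCL18 stood in the second pair at a mean of 9.81 against 3.39, the latter below the filter level, so its difference of 6.42 on the log2 scale rests on a dim signal. HSPA6 stood at 9.41 against 4.74, DPP4 at 9.03 against 4.86, and S100A9 at 4.92 against 10.52. CX3CR1 gave -5.21, S100A8 -4.80 and ANTXR1 -4.84 in the second pair. MARCHF1, a ubiquitin ligase of class II molecules, was lower in both (-3.19 and -4.08), with WT control and inhibitor means of 2.56 and 2.83, under the filter level. The medians of the ATF4 programme were 1.06 and 1.04, those of DNA replication -1.39 and -1.19, and those of the interferon-stimulated genes -0.74 and -1.59.

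**Figure D5:**
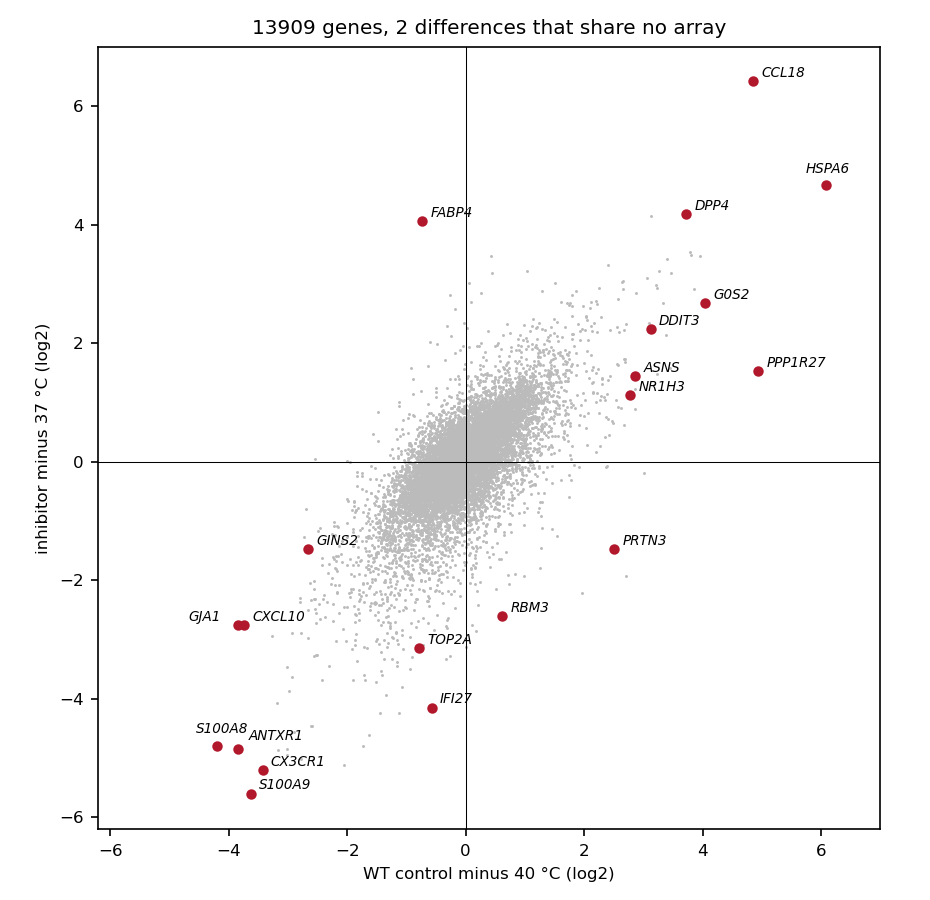
Difference of mean log2 values for 13909 genes, WT control minus 40 °C (horizontal) against inhibitor minus 37 °C (vertical), which share no array. CCL18 and HSPA6 lie at the upper right, S100A8 and S100A9 at the lower left, and FABP4 and PRTN3 in the other quadrants.

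Other members gave unlike values in the 2 pairs, and the difference between the 2 differences was not tested. PRTN3 was at 2.51 and -1.47, ELANE at 1.45 and -1.13, and FABP4 at -0.74 and 4.06. RBM3 was at 0.62 and -2.61, with means of 8.93, 8.32, 9.56 and 12.17 on WT control, 40 °C, inhibitor and 37 °C arrays. IRF7 was at 1.32 and -0.53, IFI27 at -0.57 and -4.15, and TOP2A at -0.79 and -3.14. The cytosolic chaperone medians were 0.01 and 1.03, the mitosis medians -0.93 and -2.61, and the nucleolar medians -0.29 and 0.39.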

How the data were processed

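The values are the authors' deposited log2 signals, 1 for each of 49395 probe sets and 12 Affymetrix PrimeView arrays. How they corrected background, normalized and summarised is not given in the sources used here, and array number, not read depth, limits the precision. The members, gene lists and alternatives were chosen with earlier results of these data known.

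Probe sets were named through GEO's platform annotation: 44988 have 1 gene symbol, 1832 several and 2473 none, and 102 are controls. Entrez numbers of 44961 matched a RefSeq gene table (GRCh38.p14). Each of 18132 genes was represented by its brightest probe set over the 12 arrays, and the 13909 at or above the 30th percentile (log2 4.48) were tested. Of 998 list genes 936 have a probe set with 1 symbol and 878 were tested. Some are not analysed here.

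WT control and 40 °C arrays were fitted alone with limma 3.58.1 in R 4.3.3 (lmFit, eBayes, two-sided, 4 residual degrees of freedom), Benjamini-Hochberg adjusted over the tested genes, with a threshold of 0.05. The procedure was tested on data simulated with independent normal noise. Of 50 genes changed by each of 0.25, 0.5, 1 and 2 on the log2 scale it recovered 10, 41, 49 and 50, and it called 7 unchanged genes. That simulation changed few genes and held no group-wide shifts, so it does not cover such shifts in these arrays. Folds are linear ratios of differences in mean log2. Sequences, motifs and figures used Python 3.11.15, pandas 2.3.3 and matplotlib 3.10.9, and control probe sets SciPy 1.17.1.

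The rule for naming took the 15 largest increases and decreases among called genes without overlap whose higher group mean reached the median probe set, up to 4 called members of each list by size, a fixed set of stress, cytokine and macrophage genes, 6 genes higher and 6 lower in both pairs, and the 6 of smallest p with at least 2-fold difference. Genes outside it were chosen after their values were seen. Array numbers were checked for pairing by the correlation of same-numbered deviations from group means. It was 0.24, 0.16 and -0.10 for WT control with 40 °C, and 0.18, 0.50 and 0.31 for inhibitor with 37 °C. Unlike-numbered arrays gave -0.32 to 0.21 for WT control with 40 °C and -0.44 to 0.19 for inhibitor with 37 °C. The groups lie in separate experiments and no label pairs their arrays, so the replicate numbers are not read as pairing them. Alternatives were 1 fit of all arrays, a replicate block, other filters and probe set summaries, other scaling, array weights, trend and robust eBayes, a spike covariate and leaving out each array.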

Additional observations from a re-analysis of the deposited data

How the results depend on the processing

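Counts kept within 1.5 times of those reported under most alternatives. For WT control against 40 °C, leaving out each array gave 4731 to 5087 genes higher, 4952 to 5190 lower, and 721 to 761 and 826 to 920 at 2-fold or more. For inhibitor against 37 °C it gave 5330 to 6044 and 4175 to 4734. With the replicate number as a replicate block the first pair gave 5202 higher and 5296 lower and the second 6169 and 4717. The block therefore changed no count by over 1.5 times. Keeping genes at or above the 75th percentile, an alternative chosen after seeing the data, leaves fewer genes and gave 2044, 3197, 300 and 426, and 2203 and 2874 in the second pair. Testing every probe set on its own gave 12180, 11398, 2064 and 1884, and averaging a gene's probe sets left 532 lower by 2-fold or more. The median over all genes moved by -0.10 on centring on each array's median, by 0.11 on centring on ribosomal protein genes and by 0.04 on quantile normalization, and the split of higher and lower calls was 4198 and 6096, 6157 and 4387, and 4897 and 5415.

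Of 220 named genes, 199 kept direction and call in all alternatives run, and 6 reversed. With probe sets averaged these were ACTB (-0.068), HSPA8 (1.04), SLC11A2 (-0.19), STARD4 (-0.033) and SYVN1 (-0.072), and with the spike level as a covariate SLC40A1 (-0.11). The cause was not tested. Some alternatives keep a gene's difference by construction and could change only its call. These are 1 fit of all arrays, the replicate block, trend and robust eBayes, other filters, and each probe set on its own. Filters at the 50th and 75th percentile kept 189 and 141 of the 220 genes, and averaging probe sets kept 211. Of 43 list medians 17 changed sign under some alternative, none of them larger than 0.28 in size, and 26 did not. No median could be given for the lists of erythroid or fibroblast markers at the 75th percentile. Limits: each group is 3 arrays from 1 experiment, handling and batch cannot be told apart from the group, and genes under the filter have only a dim signal.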

Other observations

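Lysosomal and autophagy genes, not described above, had no common direction. Over all genes 36.9% were higher and 37.9% lower. At mean levels of 8 to 10 these shares were 31.8% and 48.1%, and at 10 or more 31.6% and 48.7%. The counts below are to be read beside these shares. Of 26 lysosome and V-ATPase genes 12 were higher and 11 lower. The proton pump subunits ATP6V1H and ATP6V0D2 were 2.86 and 2.71-fold higher, while HEXA, a hexosaminidase subunit, was 2.69-fold lower at its brightest probe set with 4 probe sets higher and 4 lower. Of 24 autophagy genes 10 were higher and 8 lower, with the receptors OPTN and SQSTM1 2.66 and 2.13-fold higher and BECN1 1.94-fold lower in all 6 probe sets. Proteasome genes gave 5 higher and 10 lower of 25, with PSMD4 and PSMC3 both 1.56-fold lower. In the matrix list (12 higher, 10 lower of 23), the protease inhibitor TIMP3 was 3.84-fold higher and TGFBI, an adhesion protein, 3.56-fold lower. Among apoptosis regulators (6 higher, 10 lower of 20), the survival genes BCL2L1 and BCL2A1 were 2.93 and 2.73-fold higher and CASP8 2.51-fold lower.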
